A study of Mus musculus with 11 samples.

Results

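The mitochondrial ribosomal protein genes were taken as the genes whose symbol is Mrpl or Mrps followed by a number and, where present, a letter. The platform annotation listed 78 such symbols, and 77 of them had a probe of their own and were analysed, 48 named for the large subunit and 29 for the small subunit, out of 19938 genes on the array. The remaining symbol, Mrpl53, was present only on a probe shared with Ccdc142 (probe 10539321, ratios of 0.672 to 1.25) and was left out. All embryos were CD1 mice, an outbred stock, at E8.5, and no genetic change or treatment is named for any group. Cells were laser-captured from frozen sections of neuroepithelium (3 arrays, E1 to E3), neural crest (5 arrays, N1 to N5) and paraxial mesoderm (3 arrays, P1 to P3), and the RNA was amplified before hybridisation to an Affymetrix mouse ST array. The series speaks of single cells, but how many cells and which embryos stand behind an array is not said in the labels, so p-values measure only the spread between these arrays, which may be technical.

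Mitochondria carry their own ribosome, which translates the few membrane proteins of the respiratory chain that are still encoded in mitochondrial DNA. Its RNA is made inside the organelle, whereas all of its proteins are encoded in the nucleus, made in the cytosol and imported. The large subunit forms peptide bonds and the small subunit reads the messenger RNA, and each holds proteins inherited from the bacterial ancestor together with proteins found only in mitochondria. Promoters of nuclear genes for mitochondrial proteins often carry sites for the factors NRF1, GABP (an ETS factor that binds GGAA) and YY1.

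The promoters of these genes carried such letters more often than promoters in general. RefSeq promoter windows (250 bases before to 50 after the start, build GRCm38.p6) were found for 68 of the 77 genes, as 74 windows, and were searched on both strands for NRF1 (GCATGCGC, reverse GCGCATGC), ETS (CCGGAAG, reverse CTTCCGG) and YY1 (AAGATGGC, reverse GCCATCTT). None of these strings contains another, although a palindromic NRF1 match can be read on both strands. The ETS string was present in 25 of the 74 windows (33.8%, against 8.86% of all 32851 windows), the YY1 string in 12 (16.2% against 2.75%) and the NRF1 string in 8 (10.8% against 2.71%). Measured genes with a window numbered 15614. By gene, ETS was in 36.8% of members and 13.6% of these, YY1 in 17.6% and 3.77%, and NRF1 in 11.8% and 4.27%. At least 1 of the strings was present for 37 of the 68 genes, a share that was not computed over all genes. The following stretches of 120 bases upstream of the start show the strings, in capitals, for the most variable member (Mrps22), for a gene low on every neuroepithelium array (Mrps26), for a gene lower in neural crest than on every mesoderm array (Mrps18a), for a gene with 2 of the strings in the window (Mrpl22), and for the gene that varied least (Mrpl51). They lie at chr9:98601680-98601799 on the minus strand (Mrps22), and on the plus strand at chr2:130563637-130563756 (Mrps26), chr17:46110884-46111003 (Mrps18a), chr11:58171544-58171663 (Mrpl22) and chr6:125192054-125192173 (Mrpl51), all in GRCm38.p6, and each is written in the direction of its gene.
Mrps22: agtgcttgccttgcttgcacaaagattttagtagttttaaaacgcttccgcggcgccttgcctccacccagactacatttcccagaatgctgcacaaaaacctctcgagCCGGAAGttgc
Mrps26: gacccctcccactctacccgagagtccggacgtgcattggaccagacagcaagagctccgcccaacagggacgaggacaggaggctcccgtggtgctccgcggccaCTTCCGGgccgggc
Mrps18a: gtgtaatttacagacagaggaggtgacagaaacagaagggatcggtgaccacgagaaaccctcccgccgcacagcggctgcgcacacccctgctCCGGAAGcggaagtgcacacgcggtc
Mrpl22: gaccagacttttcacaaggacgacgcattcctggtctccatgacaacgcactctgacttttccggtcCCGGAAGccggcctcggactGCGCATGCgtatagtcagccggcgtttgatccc
Mrpl51: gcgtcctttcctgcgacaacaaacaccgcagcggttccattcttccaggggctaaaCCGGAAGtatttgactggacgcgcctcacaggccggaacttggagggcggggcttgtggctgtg
By the probes used, the ETS string was thus present both in the gene with the widest and in the gene with the narrowest spread. The narrow spread of Mrpl51 depended on the probe, since its other probe (10475360) fell to 0.0108 on E2 and 0.0123 on N1. Genes with it had a median SD of 2.33 in log2 ratio over the arrays and genes without it 2.26, and the corresponding values were 2.38 and 2.26 for YY1 and 2.15 and 2.27 for NRF1.

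The deposited values are ratios of each array to a reference of the gene's own. What the reference is was inferred from the values: on 8 arrays (all but E2, N3 and N5) the median ratio was 1, and 74 of the 77 members stood at exactly 1 on 1 of these 8, and 3 or 4 of the remaining 7 lay below that. The reference thus lies near the middle of those arrays and not of all 11. For 11 members the median over the 11 arrays was at least 2-fold off 1, from 0.258 (Mrpl55) to 12.7 (Mrps36), and 6 members (Mrpl14, Mrpl50, Mrpl58, Mrps18b, Mrps36 and Mrps6) were high on most of the 11, so that a ratio near 1 is not always the commoner state. A gene silent everywhere and a gene equally active everywhere would both stay near 1. No level can be compared between genes. In captured tissue, fewer cells of a type and less RNA per cell cannot be told apart. The number of genes at least 4-fold below their reference ran from 67 to 503 per array, with the highest counts on N1 (503), P3 (452) and E2 (405), and the number at least 4-fold above ran from 381 to 1617. Of the markers of the tissues, Snai1 was at least 4-fold above its reference on all 5 crest arrays, and N2 and N5 also carried Sox9, Tfap2b and Twist1, N5 Sox10, and N3 Tfap2b. The crest markers Twist1 on E2 and Tfap2b on E3 were that high in neuroepithelium too. Of the 8 crest markers, 5 were that high on some array, and Foxd3, Tfap2a and Ets1 were so on none. Neuroepithelial markers (Sox1, Sox2, Sox3, Pax6, Nes) stayed within 2-fold of their reference except for Nes on N3 (8.48) and Sox2 on P3 (2.7), and 0 of 7 paraxial mesoderm markers were that high on any array, so the ratios do not separate those tissues by these genes. Epithelial genes were high on E1, E2, E3 (4 to 5 of 7) and P2 (5 of 7), with Krt8 alone on N3 and P3, all 6 primitive erythroid genes on P1, and the notochord genes Nog and Foxa2 on P3. Endothelial genes were high on 0 arrays, and 1 of 6 stress genes (Ddit3) was high on E1.

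Nearly every mitochondrial ribosomal protein gene departed from its reference on some array. A distance of 2-fold or more on 1 or more arrays was seen for 75 of the 77 genes (97.4%) and for 28.2% of all genes. Of the 61 genes for proteins of the cytosolic ribosome, 12 (19.7%) were that far off. Those at least 4-fold above on some array numbered 44 (57.1%, against 21.7% of all genes), and those at least 4-fold below numbered 38 (49.4%, against 4.77%). The median SD of the log2 ratio over the 11 arrays was 2.29 for these genes, 0.178 for the cytosolic ribosomal genes and 0.126 for all genes. How many of all genes are expressed cannot be read from ratios, and no test was made of the difference between the lists.

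**Figure D1:**
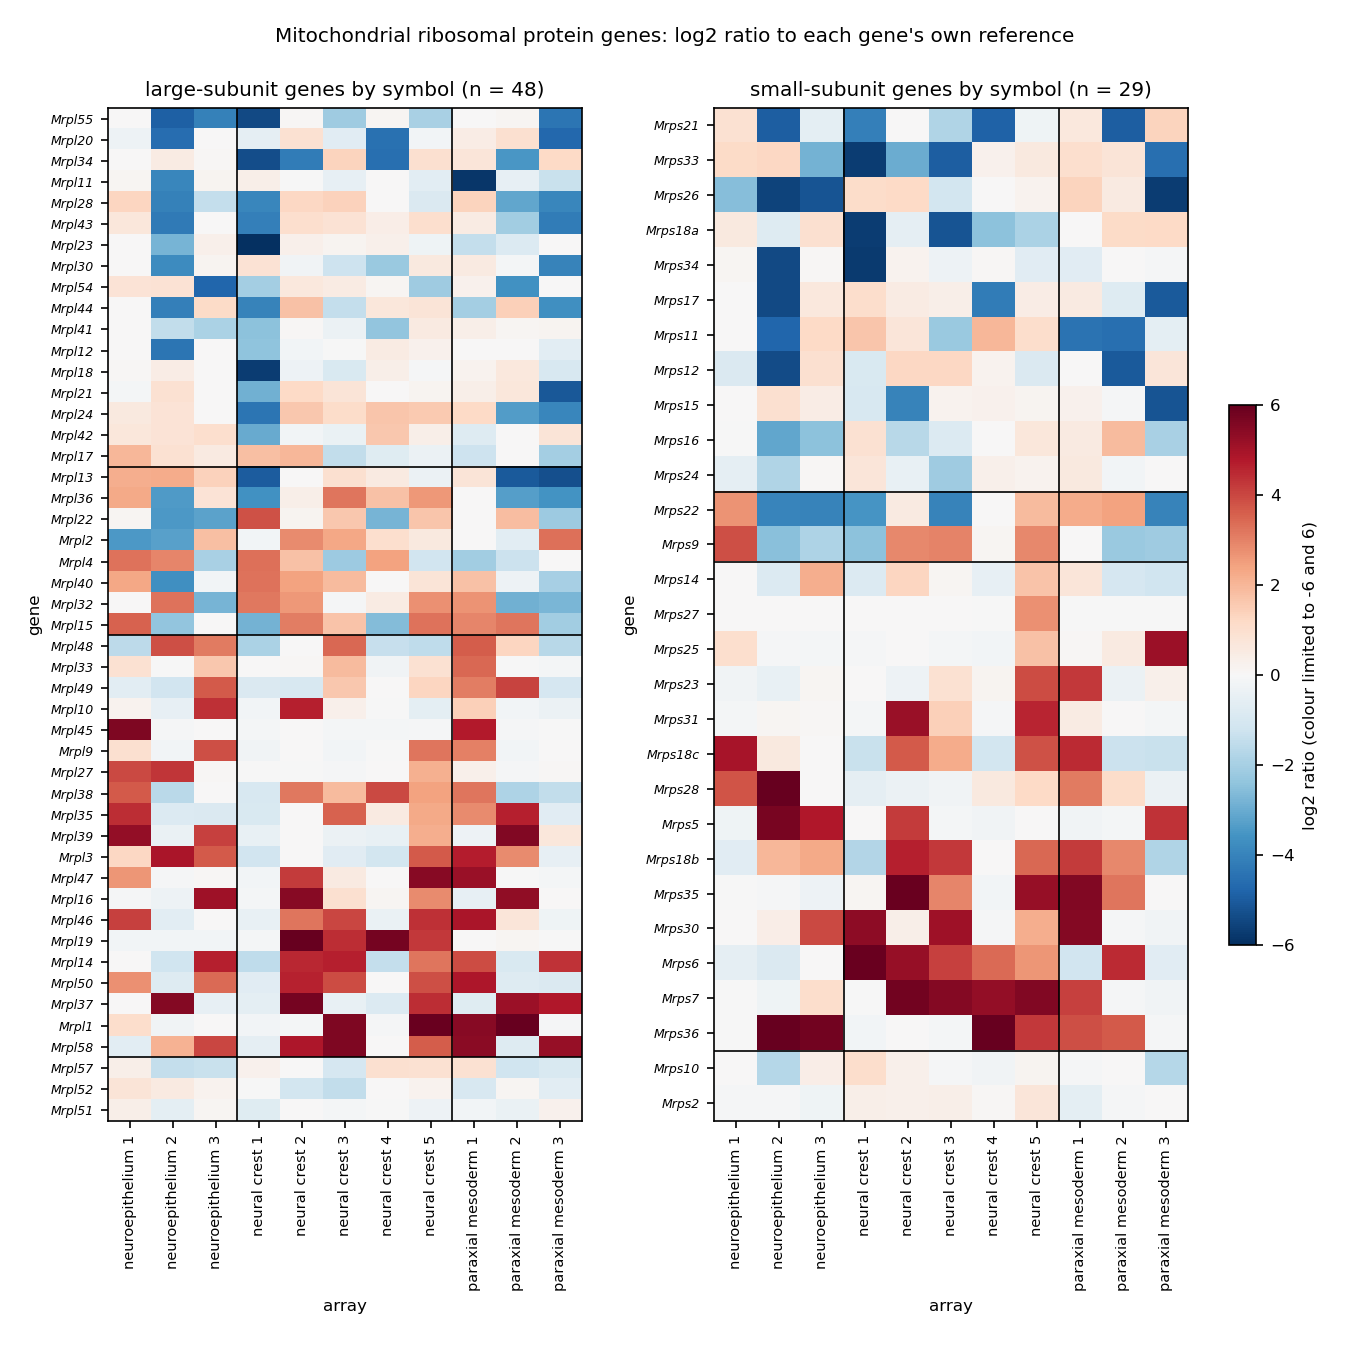
Log2 ratio of every gene (rows) on every array (columns), large-subunit genes on the left (n = 48) and small-subunit genes on the right (n = 29), with colour limited to -6 and 6. Horizontal lines separate, from the top, genes that were at least 4-fold below on some array only, both below and above, above only, and neither; vertical lines separate the tissues, and red and blue cells are found in all 3 of them.

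Most values lay either near the reference or far from it. Of 847 values, 449 (53.0%) lay within 2-fold of the reference, 167 (19.7%) at least 4-fold above and 111 (13.1%) at least 4-fold below, which left 69 and 51 values between 2-fold and 4-fold. Over all genes 92.3% of values lay within 2-fold, 4.46% at least 4-fold above and 1.15% at least 4-fold below. By gene, 34 members were high on some array and low on none, 28 low and never high, 10 both, and 5 neither (Mrpl51, Mrpl52, Mrpl57, Mrps10 and Mrps2). For 18 of the 34 high members every other array lay within 2-fold, as it did for 6 of the 28 low members. Mrpl45, a protein that helps hold the ribosome at the inner membrane (probe 10380751), shows the first form: its ratio was 48.8 on E1 and 26.6 on P1 and between 0.914 and 1.01 on the 9 other arrays. Mrps34 (probe 10442638), a small-subunit protein found only in mitochondria, shows the second: it was 0.0232 on E2 and 0.0185 on N1 and between 0.621 and 1.17 elsewhere.

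The large and small subunits both held high and low genes in numbers. Among 48 large-subunit genes 20 were high only, 17 low only, 8 both and 3 neither, and among 29 small-subunit genes the counts were 14, 11, 2 and 2. The median SD was 2.26 for the large and 2.44 for the small subunit, and the share of values at least 4-fold above was 20.5% and 18.5%, and at least 4-fold below 13.3% and 12.9%. Grouped by ancestry, 48 genes counted as having a counterpart in the bacterial ribosome were high on some array in 54.2% and low in 58.3%. The 29 other members, which include Mrpl58 and Mrps36, were so in 62.1% and 34.5%. The lower share of low genes in the second group is a description, without a test.

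Within a tissue, an array was high for some of the genes and its neighbours for others. Array N5 had 29 genes at least 4-fold above and 1 at least 4-fold below, P1 had 25 and 4, N2 22 and 3, E1 17 and 2, N3 17 and 7, and E3 15 and 8. P2 had 13 and 12, and N4, with more low than high genes, had 6 and 9. Low genes also outnumbered high ones on E2 (11 high and 23 low), N1 (6 and 22) and P3 (6 and 20). Each tissue thus held an array with more low than high genes and an array with more high than low genes, while 34 to 53 of the 77 genes were within 2-fold on every array. Of all low values, 58.6% fell on E2, N1 and P3, and 54.1% did over all genes. Of all high values, 45.5% fell on N5, P1 and N2, and 43.7% did over all genes. Mrpl15, Mrpl28, Mrpl36, Mrpl43, Mrpl44, Mrpl55, Mrps22 and Mrps9 were low on all of E2, N1 and P3.

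**Figure D2:**
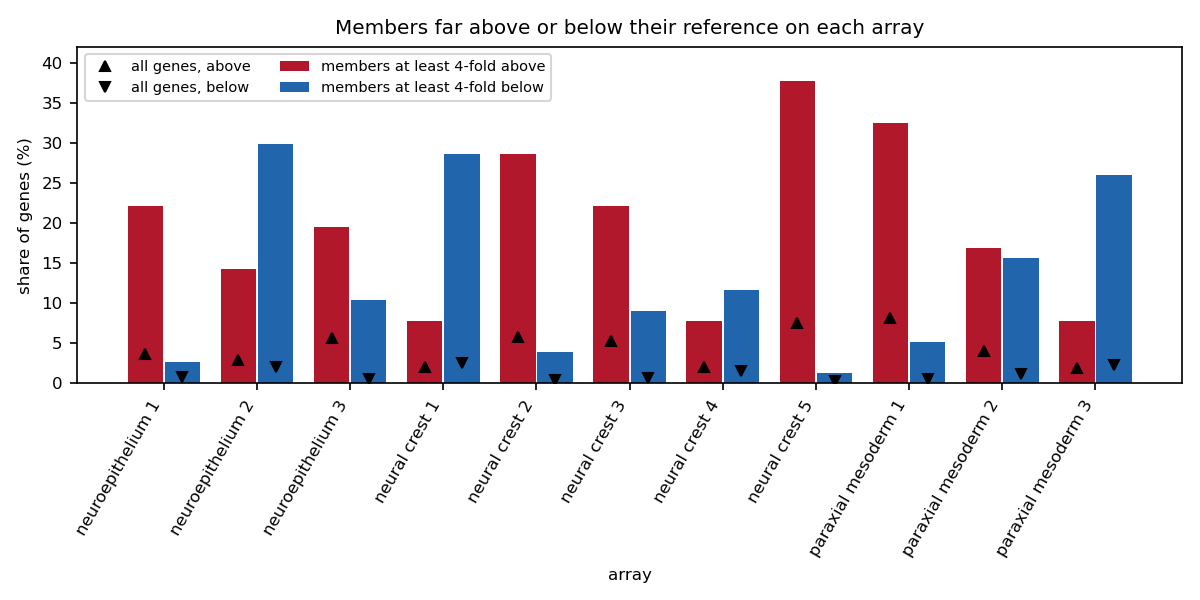
Share (%) of the 77 genes at least 4-fold above (red bars) or below (blue bars) their reference on each array, with the same shares over all 19938 genes as triangles pointing up (above) and down (below). Blue bars exceed red ones on E2, N1, N4 and P3, and red ones exceed blue ones on the other 7 arrays.

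The subunits moved together from array to array. The mean log2 ratio over the 48 large-subunit genes was 1.07, -0.61 and 0.55 on E1 to E3, -1.22, 1.32, 0.93, -0.05 and 1.35 on N1 to N5, and 1.23, 0.17 and -0.93 on P1 to P3. Over the 29 small-subunit genes it was 0.45, -0.84 and 0.26, then -0.55, 1.17, 0.30, 0.16 and 1.67, then 1.25, 0.07 and -0.82. Both were lowest on N1, P3 and E2 and highest on N5, N2 and P1. Across the 11 arrays Pearson's r between the subunits was 0.91 (Spearman's rho 0.945), and 0.901 without N1 and P3. The arrays also share their overall departure: the mean over the 77 genes had r = -0.96 with the number of all genes at least 4-fold below on the array (rho -0.936, r = -0.926 without N1 and P3). It had r = 0.87 with the number at least 4-fold above (rho 0.879, 0.809 without them) and r = 0.483 with the mean of the cytosolic ribosomal genes (rho 0.573, 0.163 without them). The part of the array-wide departure in the subunits' joint movement was not tested.

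**Figure D3:**
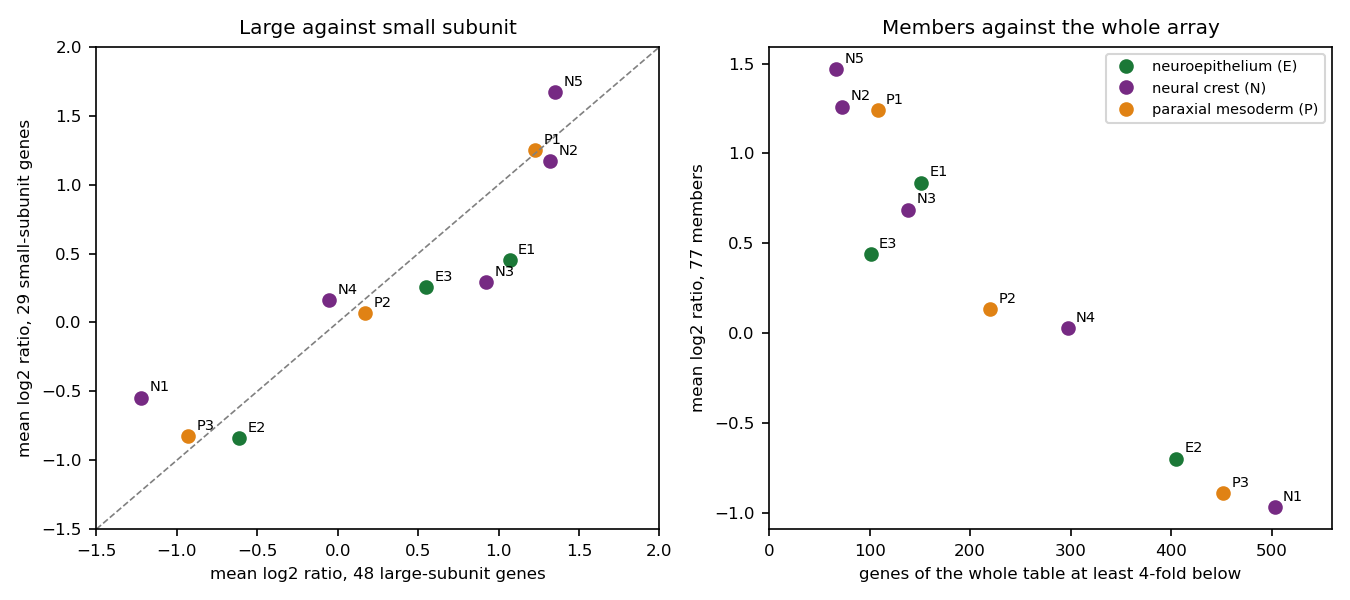
Left, mean log2 ratio of the 48 large-subunit genes against that of the 29 small-subunit genes, 1 point per array, with the line of equality dashed; right, mean log2 ratio of all 77 genes against the number of genes of the whole table at least 4-fold below their reference. N1, P3 and E2 lie lowest in both panels, and each tissue is spread over most of the range.

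The difference of the subunit means, large minus small, was highest in neuroepithelium by the mean of its arrays. It overlapped between neural crest and each of the other tissues, and the highest single array was N3. It was 0.62, 0.22 and 0.29 on E1 to E3 (0.38 ± 0.21, SD, n = 3). It was -0.68, 0.15, 0.63, -0.22 and -0.32 on N1 to N5 (-0.09 ± 0.50, SD, n = 5), and -0.02, 0.10 and -0.11 on P1 to P3 (-0.01 ± 0.10, SD, n = 3). All 3 neuroepithelium arrays lay above all 3 mesoderm arrays, also by medians over the genes (0.47, -0.01 and 0.00 against -0.05, -0.03 and -0.41), although by medians the step between E2 and P2 was small. Crest arrays ran by medians from -0.54 (N1) to 0.47 (N3). No p is given, since the difference is a score over the members. By symbol, the difference of means on crest arrays covered both signs and the range of both other tissues. The proteins of Mrps18a and Mrps30 sit in the large subunit. With these 2 genes counted there, and Mrps36 still counted with the small subunit, the difference was 0.58, 0.29 and 0.53 on E1 to E3. It was then 0.15, 0.15 and 0.05 on P1 to P3, still below neuroepithelium. In crest it ran from -0.61 (N1) to 0.57 (N3). The mean over all 77 genes was 0.19 ± 0.80 (SD, n = 3) in neuroepithelium, 0.50 ± 0.99 (n = 5) in neural crest and 0.16 ± 1.07 (n = 3) in paraxial mesoderm, so the spread within each tissue was larger than the distance between tissues.

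Single genes correlated weakly with each other. Over the 2926 pairs the median r across the 11 arrays was 0.168 and 69.1% of pairs were positive, against 0.0102 and 50.8% for pairs of all genes at least 2-fold off on some array. Pairs within the large subunit had a median of 0.198, pairs within the small subunit 0.15 and pairs across subunits 0.153. The most alike pair was Mrpl30 and Mrps17 (r = 0.943, n = 11), and the most opposed was Mrps16 and Mrps5 (r = -0.895). Mrpl30 was low on E2 (0.0742), N4 (0.212) and P3 (0.0625), and Mrps17 was 0.0237, 0.054 and 0.0302 on the same arrays. On the 8 other arrays both lay between 0.426 and 2.08. All of these values share the same 11 arrays.

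Crest cells arise from the edge of the neuroepithelium, and the pair of tissues was compared with 5 and 3 arrays. Of the 77 genes, 0 passed limma's test at an adjusted p of 0.05, and 0.0301% of all genes did. At an unadjusted p under 0.05 from the same limma fit, 9 of 77 (11.7%) were counted against 2.79% of all genes, and the lowest adjusted p from limma among the 77 was 1.0. The difference was positive for 46 and negative for 31, with a median of 0.50 in log2 (0.26 for the large and 0.69 for the small subunit, and 0.00053 over all genes). Differences of at least 2-fold were common in both directions, 25 genes up (32.5%, against 5.53% of all genes) and 15 down (19.5% against 5.29%). Without E2 the median was -0.52 for the large and 0.05 for the small subunit, and without N1 it was 0.80 for the large subunit. In 4 genes all crest arrays lay above all neuroepithelium arrays, where 1.45% of all genes did, and in 1 gene they all lay below, where 1.53% did. These genes, and those without overlap in the other comparisons, are described because their groups do not overlap; the lack of overlap fixes an exact permutation p at the smallest its group sizes allow (0.0357 for 5 against 3 arrays and 0.1 for 3 against 3), so that p adds nothing to the separation itself.

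Mrps6, a small-subunit protein with a bacterial counterpart (probe 10436941), was the only member high on every array of a tissue. Its ratios were 60.1, 37.2, 17.3, 10.4 and 6.27 in neural crest, 0.685, 0.555 and 1 in neuroepithelium, and 0.452, 22.1 and 0.625 in paraxial mesoderm. Neural crest lay above neuroepithelium without overlap, and 1 mesoderm array (P2) reached into the crest range. Epithelial genes were high on P2 and also on E1 to E3, where Mrps6 was not high, and their relation to Mrps6 was not tested. The difference from neuroepithelium was 4.72 ± 1.27 (SE) in log2, with an adjusted p from limma of 1.0. Against paraxial mesoderm it was 3.37 ± 1.27 (SE).

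Mrps26, a small-subunit protein known only from mitochondria (probe 10476189), was the only member low on every array of a tissue. In neuroepithelium its ratios were 0.169, 0.0214 and 0.0274, in neural crest 2.16, 2.29, 0.473, 1 and 1.17, and in paraxial mesoderm 2.48, 1.46 and 0.0195. The neuroepithelium arrays were all at least 4-fold below and the crest arrays between 0.473 and 2.29, and P3 was as low as the neuroepithelium. Its difference between crest and neuroepithelium was 4.72 ± 1.52 (SE) in log2 (limma adjusted p 1.0).

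Mrpl19, a large-subunit protein that in bacteria lies at the interface of the subunits (probe 10545576), was the only member to pass under any alternative. It was 0.905, 0.906 and 0.893 in neuroepithelium, 1, 1.1 and 0.973 in paraxial mesoderm, and 0.934, 62.3, 21.7, 52.7 and 19.2 in neural crest. High values were found on 4 of the 5 crest arrays and on none of the 6 others, while N1 stood with the other tissues. With N1 the difference from neuroepithelium was 4.21 ± 1.20 (SE) in log2 and did not pass (limma adjusted p 1.0). Without N1 it was 5.25 ± 0.41 (SE) with a limma adjusted p of 0.00581, and against paraxial mesoderm 5.06 ± 0.41 (SE) with 0.0113. N1 is also the array with the most genes below their reference and, like N4, had only Snai1 of the 8 crest markers high, and the part of this in the result was not tested.

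Mrps7, a protein of the head of the small subunit (probe 10382565), had the same form without passing on any setting. Its ratios were 0.976, 55, 45.2, 38.9 and 47.7 in neural crest, 0.977, 0.838 and 2.11 in neuroepithelium, and 16.9, 0.965 and 0.873 in paraxial mesoderm. N1 again lay near the reference while the 4 other crest arrays were high, and P1, the array with the erythroid genes, was high in mesoderm. The difference from neuroepithelium was 4.16 ± 1.51 (SE) in log2.

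Mrps2, a small-subunit protein with a bacterial counterpart (probe 10470547), was separated by a small step. It was 1.26, 1.23, 1.29, 1.04 and 1.63 in neural crest, 0.939, 0.948 and 0.83 in neuroepithelium, and 0.67, 0.937 and 1 in paraxial mesoderm. Every crest array lay above the 6 others, although by as little as 1.04 against 1. The differences were 0.50 ± 0.16 (SE) from neuroepithelium and 0.58 ± 0.16 (SE) from paraxial mesoderm in log2, both with a limma adjusted p of 1.0, and both rest on the same crest arrays.

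Mrpl13, a large-subunit protein with a bacterial counterpart (probe 10428690), was highest in neuroepithelium. It stood at 4.6, 4.75 and 2.61 there, at 0.0312, 1, 1.92, 1.46 and 0.779 in neural crest, and at 1.71, 0.0305 and 0.0261 in paraxial mesoderm. All 3 neuroepithelium arrays exceeded all others, and the lowest values were on N1, P2 and P3. Crest minus neuroepithelium was -2.72 ± 1.69 (SE) and mesoderm minus neuroepithelium -5.12 ± 1.89 (SE) in log2, with limma adjusted p-values of 1.0.

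**Figure D4:**
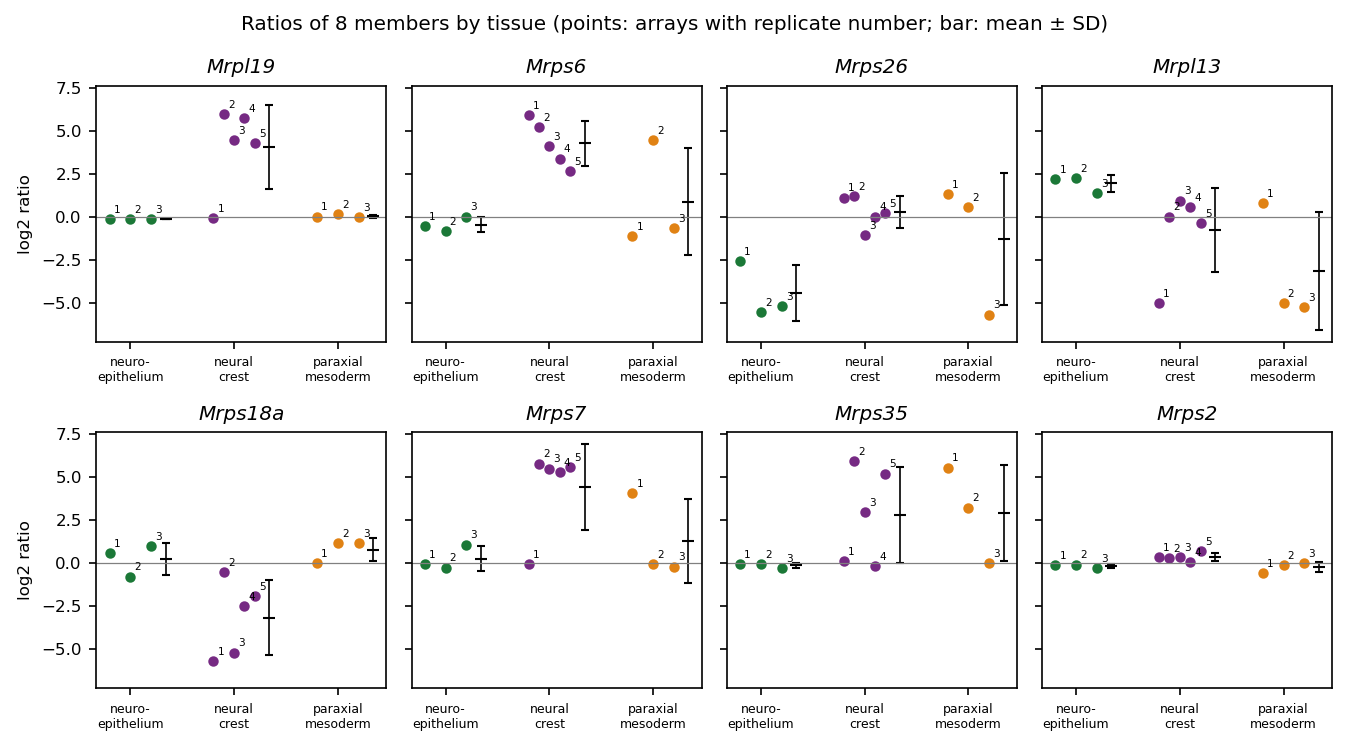
Log2 ratios of 8 members by tissue (points are arrays, numbered by replicate; the bar is the mean ± SD of the tissue, n = 3, 5 and 3). Mrps6 is high on all 5 crest arrays, Mrpl19 and Mrps7 on all but array 1, Mrps26 is low on all 3 neuroepithelium arrays, and Mrps2 differs by little.

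Neural crest was next set against paraxial mesoderm, the tissue it migrates beside. Again 0 of 77 genes passed limma's test, which 0.01% of all genes passed, and 5 (6.49%) had an unadjusted limma p under 0.05 against 2.89% of all genes. Positive differences numbered 43 and negative ones 34, with a median of 0.34 in log2 (0.27 for the large and 0.58 for the small subunit). Both medians turned on single arrays. The large-subunit median was -0.21 without N2, -0.13 without N5, -0.04 without P3 and 0.63 without P1, and the small-subunit median -0.14 without P3, 0.03 without N5 and 1.09 without P1. Groups did not overlap for 1 gene above (Mrps2, against 1.46% of all genes) and for 1 below (Mrps18a, against 1.2%).

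Mrps18a belongs to a family of 3 related genes that grew from a single bacterial small-subunit protein, and its product is known to sit in the large subunit. Its ratios (probe 10445434) were 0.0196, 0.694, 0.0273, 0.18 and 0.266 in neural crest, 1, 2.23 and 2.26 in paraxial mesoderm, and 1.5, 0.581 and 1.97 in neuroepithelium. All crest arrays lay below all mesoderm arrays, and N2 alone reached into the neuroepithelium range. The difference from mesoderm was -3.93 ± 1.16 (SE) in log2 (limma adjusted p 1.0). Its relatives differed in form. Mrps18b (probe 10450640) was 0.292, 25, 18.9, 1 and 10.7 in crest, 0.622, 3.92 and 4.82 in neuroepithelium and 18.2, 7.33 and 0.29 in mesoderm. Mrps18c (probe 10523541) was 0.394, 12.7, 4.72, 0.466 and 14.1 in crest, 30.8, 1.49 and 1 in neuroepithelium and 22.4, 0.407 and 0.391 in mesoderm. Both were high on N2, N3, N5 and P1 and below the reference on N1 and P3, and neither separated any 2 tissues. Mrps30, another protein that sits in the large subunit despite its name (probe 10412385), was high on E3 (15.8), N1 (40.8), N3 (34.5), N5 (4.51) and P1 (45.4) and between 0.854 and 1.3 on the other 6 arrays.

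Paraxial mesoderm and neuroepithelium were compared as the tissues on either side of the crest, with 3 arrays each. Here too 0 of 77 genes passed limma's test (0.015% of all genes did), and 2 (2.6%) had an unadjusted limma p under 0.05, against 2.48% of all genes. Signs were even, 38 positive and 39 negative, with a median of -0.05 in log2 (-0.17 for the large and 0.28 for the small subunit). Without P3 the large-subunit median was 0.44, without E2 -0.72 and without P1 -0.71, and the small-subunit median ran from -0.38 without P1 to 0.88 without E3. Mesoderm lay above neuroepithelium without overlap for 3 genes, as did 2.82% of all genes, and below for 4, as did 4.02%.

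The widest of these separations, after Mrpl13, was that of Mrps35, a small-subunit protein (probe 10542824). It was 46.7, 9.4 and 1 in paraxial mesoderm and 0.973, 0.963 and 0.817 in neuroepithelium, and in neural crest 1.09, 60.8, 7.71, 0.887 and 36.9. P3 exceeded the highest neuroepithelium array only by 1 against 0.973, and 3 crest arrays were high. The difference was 3.06 ± 1.89 (SE) in log2. Mrpl17 (probe 10566564), a large-subunit protein with a bacterial counterpart, was 0.427, 1 and 0.24 in mesoderm and 3.96, 1.88 and 1.47 in neuroepithelium, a difference of -2.24 ± 0.99 (SE), and 3.48, 4, 0.355, 0.611 and 0.784 in crest. Of the others without overlap, Mrpl41 differed by 1.33, Mrpl19 by 0.18 and Mrps27 by -0.05, and Mrpl52 was 0.515, 1.08 and 0.644 in mesoderm against 1.71, 1.46 and 1.15. All 7 genes had a limma adjusted p of 1.0.

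**Figure D5:**
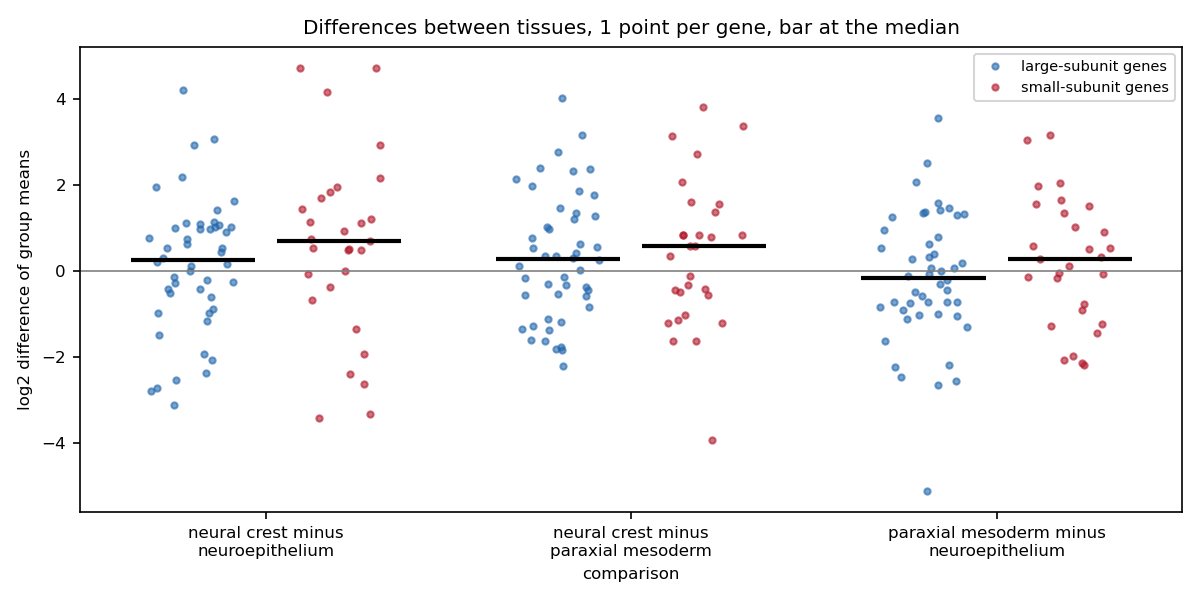
Log2 difference of group means in each comparison, 1 point per gene, large-subunit genes in blue (n = 48) and small-subunit genes in red (n = 29), with the median of each as a bar. The points run from about -5 to 5 on both sides of 0, and every median lies between -0.17 and 0.69.

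The most variable members were unlike one another in where they were high. Mrps22, a small-subunit protein found only in mitochondria (probe 10595900), had the largest SD (2.99 in log2). It lay between 0.0623 and 0.0867 on E2, E3, N1, N3 and P3, at 1 and 1.44 on N4 and N2, and between 3.76 and 6.39 on E1, N5, P1 and P2. Its low arrays were found in all 3 tissues, and arrays at least 4-fold above in neuroepithelium and mesoderm. Mrpl37 (probe 10514884), a large-subunit protein found only in mitochondria, was 45.8 on E2, 53.4 on N2, 21.8 on N5, 34.6 on P2 and 27.6 on P3, and between 0.569 and 1 elsewhere. It was high on E2 and P3, where more members were low than high, as well as on N2 and N5, where more were high than low.

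Mrpl1, which in bacteria forms the mobile stalk beside the exit site for transfer RNA (probe 10523365), was 48.9 on N3, 61.7 on N5, 44 on P1 and 70.8 on P2, 2.1 on E1, and between 0.876 and 1 on the remaining arrays. Mrpl14 (probe 10445430), a large-subunit protein of the interface between subunits, reached 25.1 on E3, 23.4 on N2, 25.5 on N3, 9.38 on N5, 15.1 on P1 and 19.9 on P3, and lay between 0.343 and 1 on the other 5. Mrpl58, a peptide-releasing enzyme built into the large subunit that rescues stalled ribosomes (probe 10382508), was at least 4-fold above on 7 arrays, the most of any member. Its ratios were 0.638, 4.21 and 16 in neuroepithelium, 0.683, 28.6, 48.5, 1 and 12.4 in crest, and 43, 0.579 and 37.1 in mesoderm. None of these genes separated a pair of tissues.

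Mrps36 (probe 10411722) is listed with the small subunit by its symbol, although its protein is now known as a part of the α-ketoglutarate dehydrogenase complex. It was 66.1 on E2, 56.2 on E3, 68.1 on N4, 18.8 on N5, 14.7 on P1 and 12.7 on P2, and between 0.879 and 1 on E1, N1, N2, N3 and P3. It was the highest member on both E3 and N4. Mrps28 (probe 10497209), a small-subunit protein, held the highest ratio of all members, 100.1 on E2, beside 13.7 on E1 and 8.71 on P1. Mrps33 (probe 10544243) was low on E3 (0.141), N1 (0.0192), N2 (0.128), N3 (0.0324) and P3 (0.043) and between 1.19 and 2.39 on the other 6, so that its low arrays were again spread over all tissues.

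The lowest ratio of any member was 0.0156, for Mrpl23 on N1. Mrpl23, a protein at the exit of the peptide tunnel (probe 10559233), was otherwise 0.144 on E2, 0.368 on P1 and between 0.564 and 1.24 elsewhere. Mrpl11, a protein at the base of the stalk that recruits translation factors (probe 10460492), was 0.0177 on P1, 0.0662 on E2 and 0.402 on P3, and between 0.639 and 1.27 on the other 8 arrays. Mrps12, which in bacteria lines the decoding site (probe 10561513), was 0.0242 on E2 and 0.0305 on P2 and between 0.528 and 2.37 elsewhere. Mrpl2, a protein near the site of peptide bond formation (probe 10445565), was the lowest member on E1 (0.0926) and was 0.105 on E2, while it stood at 10.04 on P3. Mrpl34 was the lowest member on N2 (0.0545), Mrps21 on N4 (0.0349) and Mrpl54 on N5 (0.231).

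At the other end, Mrpl51 and Mrps2 stayed within 2-fold of their reference on every array, with ratios of 0.598 to 1.29 and 0.67 to 1.63. Mrpl52 ran from 0.362 to 1.71. Which genes looked quiet depended on the probe. A second probe of Mrpl51 (10475360) fell to 0.0108 on E2 and 0.0123 on N1, where the probe used (10541873) read 0.669 and 0.598. Of 8 members with 2 probes, Mrpl23 (r = 0.999 over the 11 arrays), Mrps33 (0.999) and Mrps36 (0.998) had probes that differed by no more than 0.46 in log2. Mrpl27 (r = 0.435), Mrpl41 (0.93), Mrpl47 (-0.0312), Mrpl51 (0.725) and Mrps5 (0.669) had probes that differed by more than 1 in log2 on some array. For Mrpl47 the probe used was 44.3 on N5 and 36.2 on P1 where the other read 0.982 and 1.48. Mrpl27 was 15.6 on E1 and 19.7 on E2 by the probe used (10380411) and 1.05 and 1.96 by the other. Mrps5 was 52.3, 27.6, 18.5 and 19.9 on E2, E3, N2 and P3 by the probe used and 5.46, 1.2, 33.5 and 2.1 by the other. Averaging the probes of a gene left 76 of 77 genes at least 2-fold off.

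Other genes of the same pathway also departed from their reference, and 0 of them passed limma's test in any comparison. At an unadjusted limma p under 0.05 each list below had 0 or 1 genes per comparison, except the translation factors. Of these 17 genes, 2 were counted in crest minus mesoderm and 3 in mesoderm minus neuroepithelium, against 2.89% and 2.48% of all genes. Of 6 other symbols searched for proteins of this ribosome 4 were found among the measured genes. Each of the 4 was 2-fold off or more on an array, as were 28.2% of all genes. The searched symbol Ict1 is an older symbol of Mrpl58, which is already a member. Dap3, a GTP-binding protein of the small subunit, was 1.54, 0.0792 and 1 in neuroepithelium, 0.0682, 1.21, 3.83, 4.24 and 2.78 in crest, and 1.8, 0.0849 and 0.124 in mesoderm, and was low on E2, N1 and P3 like many members. Ptcd3 ran from 0.195 on E1 to 13.5 on N1. Of 17 measured translation factors 14 were at least 2-fold off (82.4%, against 28.2% of all genes). At least 4-fold above were 12 (70.6% of the 17, against 21.7%) and at least 4-fold below 2 (11.8% against 4.77%). Mrrf, which frees the ribosome for a new round, was 198 on N1, 80.7 on N2, 27.9 on N3 and 68.7 on P1 and between 0.862 and 1.13 elsewhere. Tsfm, which recharges the elongation factor Tufm, was between 11.4 and 49.8 on E1, E2, N2, N3, N5 and P1 and between 0.764 and 1.07 on the others.

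Of 27 measured genes for assembly of the ribosome and modification of its RNA, 24 were at least 2-fold off (88.9%, against 28.2% of all genes). On some array 22 were high (81.5% against 21.7%) and 3 low (11.1% against 4.77%). Malsu1, an assembly factor of the large subunit, was between 31.5 and 45.2 on N3, N4, N5, P1 and P3, and Noa1, a GTPase of the small subunit's assembly, was 52.5 on E3, 36 on N2, 42.1 on N5 and 34.7 on P1. Among 16 aminoacyl-tRNA synthetases of mitochondria 12 (75.0%, against 21.7% of all genes) were high on some array and 0 low (against 4.77%). The high ones included Yars2 (97.7 on E1 and 105 on E3) and Rars2 (48.3 on E1). Of 15 genes for transcription and replication of mitochondrial DNA 8 were high (53.3%, against 21.7% of all genes) and 1 low (6.67%, near the 4.77% of all genes). Tfam, which packages the DNA and starts its transcription, was 20.8, 32.5 and 31.5 on N3 to N5 and 25.3 on P3 and between 0.299 and 1.56 on the others, and Tefm, an elongation factor, was between 30.1 and 74.3 on E1, E3, N2, N3 and N5.

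Of 12 regulators of mitochondrial biogenesis 5 were high on some array (41.7%, against 21.7% of all genes) and 2 low (16.7% against 4.77%). Gabpa, the subunit of GABP that binds DNA, was 33.5 on E1 and 6.13 on P1 and between 0.963 and 1.67 on the other 9 arrays. Myc, which drives growth and ribosome synthesis, was 0.0687, 0.0836 and 0.063 in neuroepithelium, 5.83, 4.42, 1.99, 1.42 and 4.97 in neural crest, and 1.57, 0.318 and 0.0636 in paraxial mesoderm. All crest arrays lay above all neuroepithelium arrays, and P1 overlapped the crest. Set beside these lists, 49.4% of the members were low on some array, as were all 4 ribosomal proteins under other symbols, 16.7% of biogenesis regulators, 11.8% of translation factors, 11.1% of assembly genes, 6.67% of genes for mitochondrial DNA and 0.0% of synthetases, which is a description without a test.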

How the data were processed

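The deposited table holds, for each of 28856 probes with values, a linear ratio per array to a reference of that probe; RMA and the mouse build mm9 are named without a role, per the submitters' processing notes, and the step by which the authors made the ratio is not stated in those notes or labels. The array medians ran from 0.991 to 1.01. Probes with 1 symbol in the platform annotation were kept, and the probe with the highest mean log2 ratio stood for each gene, a choice that favours high ratios and touched 8 members. Promoters came from RefSeq (GRCm38.p6), a build other than that of the arrays.

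Log2 ratios of all 19938 genes were fitted on 11 arrays as 3 group means with lmFit and eBayes in limma 3.58.1 (R 4.3.3), without a trend because ratios hold no intensity. P-values were adjusted by Benjamini-Hochberg over all genes (two-sided threshold 0.05). The number of arrays limits the precision. Genes without overlap had an exact permutation test. The script was tested on simulated data. Alternatives covered the fit, normalization, pseudocount, filter, probe rule, a replicate block and each array left out.

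The members and gene lists were chosen with earlier results of these data known. Named were, per comparison, up to 5 members each way with the largest difference among those without overlap, the 10 largest and 3 smallest SDs, the highest and lowest member of each array, members with discordant probes, Mrps30 and the Mrps18 family, and the 2 most variable genes of each pathway list. Mrps7 counts under the largest SDs. Mrpl45, Mrps34 and the pair Mrpl30 and Mrps17 were used as examples after their values were seen.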

Additional observations from a re-analysis of the deposited data

Results flagged for a closer look

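Of 39 groups of crest arrays tested for 1 array far from the other 4, 7 stood apart. Chance gives about 1 in 20 for groups not picked by their values, a rate that cannot be applied here, since many of these genes were named for a large spread or for being the highest or lowest on an array. On N1, Mrpl13 (ratio 0.0312), Mrpl23 (0.0156), Mrpl19 (0.934) and Mrps7 (0.976) lay far below the other crest arrays. On N5, Mrpl27 (4.35) and Mrps27 (6.74) lay far above them, and Mrps5 did so on N2 (18.5). Mrps27, a small-subunit protein that binds RNA, was between 0.982 and 1.03 on all 10 other arrays.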

How the results depend on the processing

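The 77 members gave 0 calls in all 3 comparisons under every alternative run, except that Mrpl19 was called without N1, so leaving out 1 array gave 0 to 1 calls in neural crest minus neuroepithelium and in neural crest minus paraxial mesoderm and 0 in the third. Calls over all genes moved with the fit. A trend on the mean log2 ratio, which is not an intensity, gave 2 in place of 6 for crest minus neuroepithelium. It gave 0 in place of 2 for crest minus mesoderm. Fitting only the arrays compared gave 11 in the first and 5 in place of 3 for mesoderm minus neuroepithelium. Leaving out 1 array gave 5 to 19, 1 to 43 and 3 to 39 calls, with the highest without E2, P3 and P3.

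Subunit medians turned with single arrays. In crest minus neuroepithelium they ran from -0.52 to 0.80 (large) and 0.05 to 0.91 (small), in crest minus mesoderm from -0.21 to 0.63 (large) and -0.14 to 1.09 (small), and in mesoderm minus neuroepithelium from -0.72 to 0.44 (large) and -0.38 to 0.88 (small). Over all genes, same-numbered arrays did not deviate together (correlations of -0.153 to 0.0505). Pairs with different numbers ran from -0.114 to 0.169. Whether same-numbered arrays share an embryo or a batch is not said in the labels, and these correlations cannot decide it. A replicate block gave 6, 3 and 2 calls over all genes and moved the small-subunit median of crest minus mesoderm to 0.07. The count of members at least 2-fold off stayed between 74 and 76, and the 15 differences between tissues followed for 11 named genes kept their direction. Nearly all of these were picked for groups that do not overlap, so leaving out an array could not reverse them. Their kept direction is therefore no check of the result. The other named genes were refitted too, but the direction of their differences was not followed. The ratios carry no signal over background, so weak signal and true absence cannot be told apart, and 3 arrays per group allow no exact p below 0.1.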
